A study of Homo sapiens with 2 samples.

Results

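The hairpin mir-21 gives a pair of mature miRNAs, hsa-miR-21-5p from its 5′ arm and hsa-miR-21-3p from its 3′ arm, named below without the species prefix. Both rows of the deposited table that carry this precursor were taken, which made 2 members among the 1497 mature miRNAs and 1 hairpin among the 451 with both arms listed. The samples were A375 cells, a line established from human melanoma, kept for 24 h after seeding and then given DMSO, the usual drug vehicle, for 48 h. There was 1 group of 2 small RNA libraries (replicates 1 and 2), both with the same treatment, so no condition was compared. The labels say that the replicates are independent and nothing of separate cultures, so the spread between them may be technical.

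MiRNAs are made from hairpin precursors that Drosha and Dicer cut into a short duplex. Usually the strand named the guide is kept in an Argonaute protein, where its seed, bases 2 to 8, pairs with messenger RNAs, and the partner (passenger) strand is degraded. MiR-21-5p is the guide of mir-21. It is raised in many tumours, its gene is switched on by AP-1 and STAT3, and it is known to repress PDCD4 and Sprouty genes. MiR-21-3p is the strand formerly written miR-21*.

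The mir-21 hairpin is shown to place the 5p arm, in capitals, within the stem and loop; the sequence is from RefSeq (GRCh38.p14).
mir-21 hairpin: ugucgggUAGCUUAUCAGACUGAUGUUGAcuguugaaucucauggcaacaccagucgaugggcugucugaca
It lies at chr17:59841266-59841337 on the plus strand and is 72 bases long. In the GENCODE 29 annotation (GRCh38) it lies inside VMP1, in an exon of the retained-intron transcript VMP1-216 that runs from 59837931 to 59842255. The lowest-energy fold predicted by RNAfold pairs 64 of the 72 bases at -34.6 kcal per mol. In that fold 19 of the 22 bases of miR-21-5p are paired, all 7 seed bases among them.

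The mature 5p sequence is printed beside the other miRNA of the RefSeq table with the same seed, which is in capitals.
miR-21-5p: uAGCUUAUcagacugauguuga
miR-590-5p: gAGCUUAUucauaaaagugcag
MiR-21-5p occupies chr17:59841273-59841294 (plus strand), and miR-590-5p chr7:74191213-74191234 (plus strand). The pair differed widely in level. MiR-590-5p had 2.87 RPM in replicate 1 and 2.33 RPM in replicate 2 and stood at rank 493 by mean. MiR-21-5p was 20843-fold above it in replicate 1 and 20561-fold in replicate 2. Among names with a RefSeq sequence, nearly all RPM of this seed thus belonged to miR-21-5p.

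The series concerns miRNAs that act on a BRAF transcript, so the miR-21-5p seed match was looked for in 3′ UTRs of GENCODE 29. The motifs were ATAAGCT, complementary to the seed, and ATAAGCTA, the same letters with an A after them; the strand of the transcript alone was read. PDCD4, an inhibitor of translation and the classic target, is shown as a known example, with the match in capitals.
PDCD4 site: aagtggaatattctaATAAGCTA
BRAF site: caaaatttccaatgcATAAGCTg
The PDCD4 stretch lies at chr10:110898315-110898337 (plus strand) and its match begins at base 242 of the 3′ UTR of PDCD4-201. The BRAF stretch lies at chr7:140726368-140726390 (minus strand) and its match begins at base 119 of the 7167-base 3′ UTR of BRAF-204. The same match ends the 125-base 3′ UTR of BRAF-215, and BRAF-201, BRAF-202 and BRAF-220 had 0 matches. Over the longest 3′ UTR of 19132 genes, 8.71% held ATAAGCT and 2.45% ATAAGCTA. Among the 534 genes whose longest 3′ UTR is within 1.2-fold of that in BRAF-204, 31.6% held ATAAGCT, and among the 2260 as near in length to PDCD4-201, 2.61% held ATAAGCTA. A match of these letters is a description and no evidence of binding. Which of these transcripts is the BRAF transcript of the study's title is not given in the sources used here.

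Values are RPM, reads per 1000000 read assignments of a library, as the authors deposited them. The libraries held 10816826 and 15428446 read assignments, so 1 read was worth 0.0924 RPM in replicate 1 and 0.0648 RPM in replicate 2. Of 4 melanocyte or melanoma markers, miR-182-5p, miR-204-5p and miR-146a-5p each exceeded 1000 RPM in either library, while miR-211-5p, which is made from an intron of the melanocyte gene TRPM1, had 3 reads and 2 reads. The summed level of the 4 was 11355 RPM in replicate 1 and 12067 RPM in replicate 2. Of 16 markers of blood, epithelial, muscle, liver or mesenchymal cells 14 had a row, and the highest summed level was that of the blood list at 173 and 202 RPM. That sum was nearly all miR-486-5p, and miR-451a, which defines red cells, had 1 read and 0 reads. The outcome depends on the members listed. MiR-199a-5p of the mesenchymal list had 1.85 and 3.37 RPM, but 2 relatives not listed were far higher. These were miR-199a-3p (853 and 833 RPM) and miR-199b-5p (663 and 750 RPM).

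Hsa-miR-21-5p, the guide arm, was among the most abundant miRNAs of these cells. It had 59733 RPM (646126 reads) in replicate 1 and 47975 RPM (740185 reads) in replicate 2, a mean of 53854 ± 8314 RPM (SD, n = 2). These reads were 5.97% of all assignments in replicate 1 (95% exact binomial interval 5.96 to 5.99) and 4.80% in replicate 2 (4.79 to 4.81). The intervals cover counting error only, and the distance between the libraries was far wider than either. MiR-21-5p stood at rank 2 in replicate 1 and rank 5 in replicate 2.

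The order at the top was not resolved. Only miR-100-5p was above miR-21-5p in non-overlapping ranges over the libraries, with 61921 and 87643.5 RPM. The level of miR-21-5p was 0.965 times that of miR-100-5p in replicate 1 and 0.547 times in replicate 2. The ranges of miR-191-5p (45001 and 61895.5 RPM), miR-92a-3p (53477 and 52103 RPM) and miR-27b-3p (52181 and 48824 RPM) overlapped that of miR-21-5p. MiR-21-5p was higher than each of these 3 in replicate 1 and lower than each in replicate 2. The remaining 1492 mature miRNAs lay below its range in both libraries.

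Hsa-miR-21-3p, the arm named the passenger strand, was itself an abundant miRNA. It had 12438 RPM (134545 reads) in replicate 1 and 11298 RPM (174314 reads) in replicate 2, a mean of 11868 ± 806 RPM (SD, n = 2). Its share of all assignments was 1.24% in replicate 1 (95% exact binomial interval 1.24 to 1.25) and 1.13% in replicate 2 (1.12 to 1.14). It ranked 15 in replicate 1 and 18 in replicate 2. The lowest of its values exceeded the highest of 1479 mature miRNAs, and 13 were above its range in both libraries.

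Next above miR-21-3p by mean were miR-99b-5p, miR-26a-5p and miR-16-5p, guide arms of widely expressed families. Their ranges overlapped that of miR-21-3p, with 9922 and 14414 RPM for miR-99b-5p, 11175 and 13204 RPM for miR-26a-5p, and 10598 and 14465 RPM for miR-16-5p. Next below were miR-140-3p (10891 and 11021 RPM), miR-27a-3p (10560 and 9343 RPM) and miR-186-5p (9341 and 10275 RPM), and none of these ranges reached that of miR-21-3p.

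**Figure D1:**
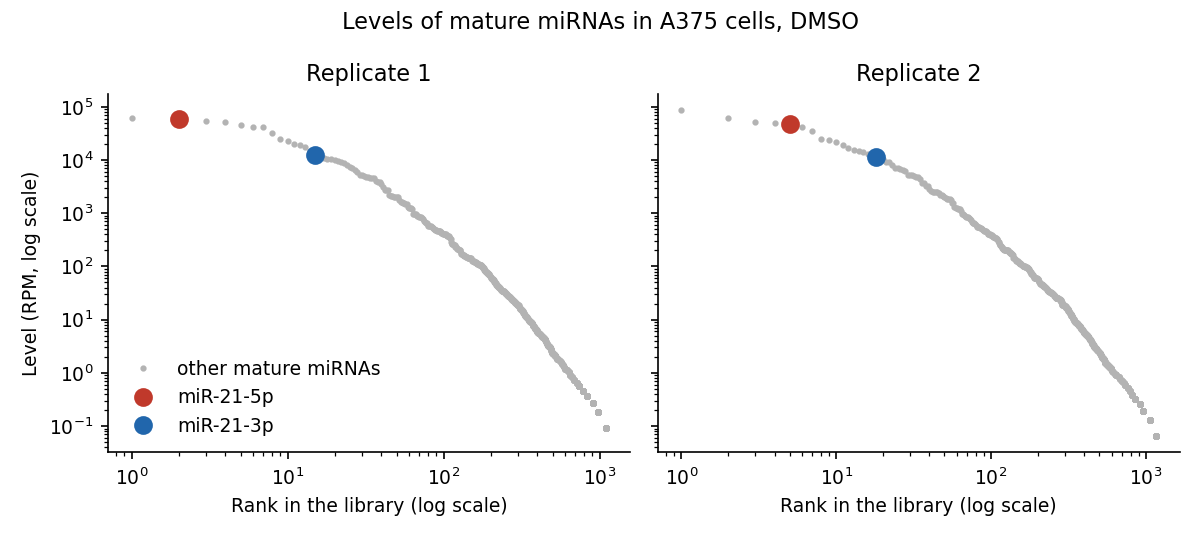
Level of each mature miRNA (y, RPM, log scale) against its rank in the library (x, log scale), 1 panel per replicate, with miR-21-5p in red, miR-21-3p in blue and the others in grey; miRNAs at 0 are left out. MiR-21-5p sits at rank 2 and rank 5, and miR-21-3p at rank 15 and rank 18, in the upper part of both curves.

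With both arms added, mir-21 led all hairpins of replicate 1 with 72172 RPM, ahead of mir-100 at 63552 RPM. In replicate 2 it was number 3 at 59274 RPM, behind mir-100 at 89583 RPM and mir-191 at 61942 RPM. The mean was 65723 ± 9121 RPM (SD, n = 2), against 76568 ± 18407 RPM for mir-100. The ranges of mir-21 and mir-100 overlapped, so their order was not resolved either.

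Both arms of mir-21 accumulated, with the 5p arm 4.80 times the 3p arm in replicate 1 and 4.25 times in replicate 2. On the log2 scale, after adding 1 RPM to each arm, the ratio of 5p over 3p was 2.26 in replicate 1 and 2.09 in replicate 2, a mean of 2.17 ± 0.13 (SD, n = 2). The 3p arm made up 17.2% of the reads of the hairpin in replicate 1 (95% exact binomial interval 17.2 to 17.3) and 19.1% in replicate 2 (19.0 to 19.1). Neither arm is assigned to any other hairpin of the table, so the ratio is not blurred by shared copies.

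The level of miR-21-3p stood apart among less abundant arms. Of the hairpins with both arms listed, 137 had arms summing to a mean of 100 RPM or more, and among these it was the highest such arm in each library. The next was miR-151a-5p, whose hairpin is nearly balanced, with 4547 and 5130 RPM (replicates 1 and 2), so miR-21-3p was 2.74 and 2.20 times as high. Then came miR-100-3p (1631 and 1940 RPM), miR-423-5p (1991 and 1543 RPM), miR-181a-3p (1655 and 1181 RPM) and miR-125b-1-3p (1194 and 1542 RPM). MiR-21-3p was from 5.82 to 10.4 times as high as these 4 over the libraries. The median of the less abundant arm over the other 136 hairpins was 30.1 RPM.

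**Figure D2:**
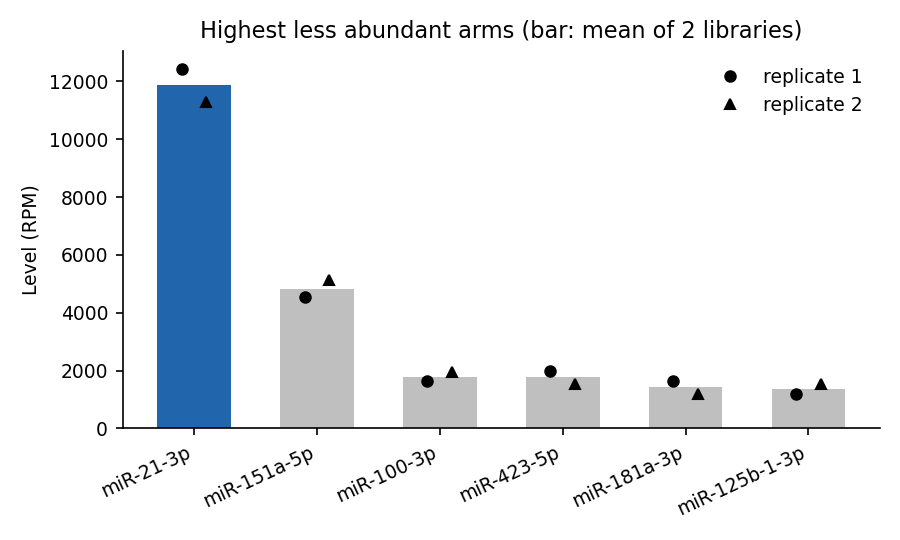
Level (y, RPM, linear scale from 0) of the 6 highest less abundant arms, with bars for the mean of the 2 libraries, circles for replicate 1 and triangles for replicate 2. The miR-21-3p bar (blue) reaches 11868 RPM, and the next bar, miR-151a-5p, 4839 RPM.

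Counting each mature name once, the 134 less abundant arms of these hairpins summed to 35308 RPM in replicate 1 and 33669 RPM in replicate 2. MiR-21-3p alone made up 35.2% and 33.6% of those sums. In 114 of the other 136 hairpins even the more abundant arm was below miR-21-3p in both libraries, and in 17 the more abundant arm was above it in both.

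The arms of mir-21 were closer to balance than those of most hairpins at 100 RPM or more. Of the other 136 hairpins, 24 were more balanced and 112 less so, and the median distance between arms was 5.57 on the log2 scale. The median share of the less abundant arm was 1.98% in replicate 1 and 1.92% in replicate 2. Among the 101 hairpins without a shared arm, mir-21 included, 21 others were more balanced and 79 less so, with a median distance of 4.83.

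At higher levels fewer hairpins were as balanced. Of the other 69 hairpins at 1000 RPM or more, 5 were more balanced than mir-21, namely mir-151a, mir-199b, mir-423, mir-125b-1 and mir-1307. Each had a lower mean sum of arms, as did all hairpins but mir-100. The 3p arm of mir-199b has the same sequence as that of mir-199a, so its own ratio is uncertain. Of the other 25 at 10000 RPM or more, 1 was more balanced, mir-151a at 10471 RPM. At both of these minima hairpins that share an arm were kept and counted separately, such as let-7a-1, let-7a-2 and let-7a-3. Their own ratios are uncertain too, and the counts at these minima were not repeated without them. The result depends on this minimum and on the 1 RPM added to each arm. With all 451 hairpins, down to those of a few reads, 266 others (59.1%) were more balanced by this measure. The median less abundant arm of the others was then 0.539 RPM, so the added 1 RPM draws many of their ratios toward balance. Without it, over 340 hairpins above 0 in both arms and libraries, a set chosen after seeing the data, 37.8% of the others were more balanced.

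**Figure D3:**
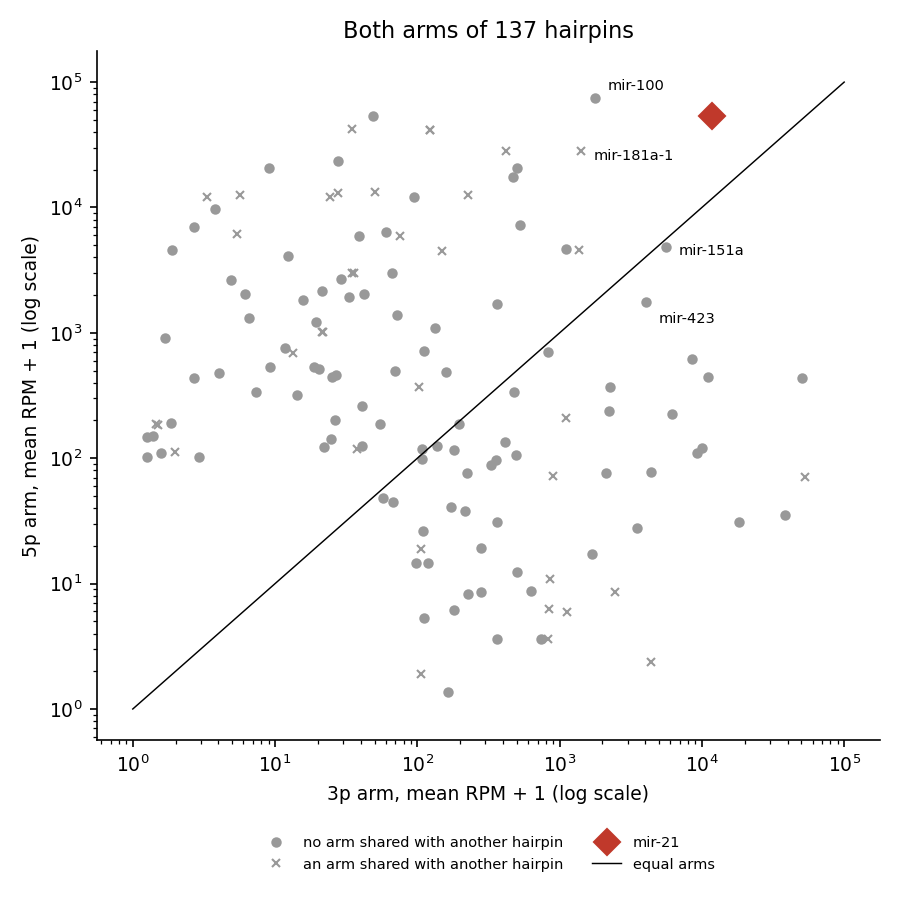
Mean level of the 5p arm (y) against the 3p arm (x), both RPM + 1 on log scales, for 137 hairpins; crosses have an arm shared with another hairpin, the line marks equal arms, and mir-21 is the red diamond. Mir-21 lies toward the upper right corner, high in both arms, while hairpins of like height on either axis, such as mir-100 and mir-181a-1, lie farther from the line.

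The contrast was plainest among the 10 hairpins with the highest sums of arms, counting hairpins that share their more abundant arm once. There the arms of mir-21 lay 4.54-fold apart by mean RPM. In the other 9 they lay from 19.8-fold (mir-181a-1) to 1123-fold (mir-22) apart. The more abundant arms of mir-181a-1, let-7a-1 and mir-92a-1 are shared with other hairpins, so the folds of these hairpins are uncertain. For mir-181a-1 the sharing hairpin, mir-181a-2, had a less abundant arm of its own at 420 RPM by mean. Mir-100, the hairpin with the highest mean sum, had arms 41.9-fold apart, with 74782 RPM for miR-100-5p and 1785 RPM for miR-100-3p. Mir-191 was 1122-fold apart, with 47.6 RPM for miR-191-3p, and mir-27b 115-fold, with 439 RPM for miR-27b-5p. Passenger arms of these other hairpins went down to 26.8 RPM for miR-10a-3p.

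**Figure D4:**
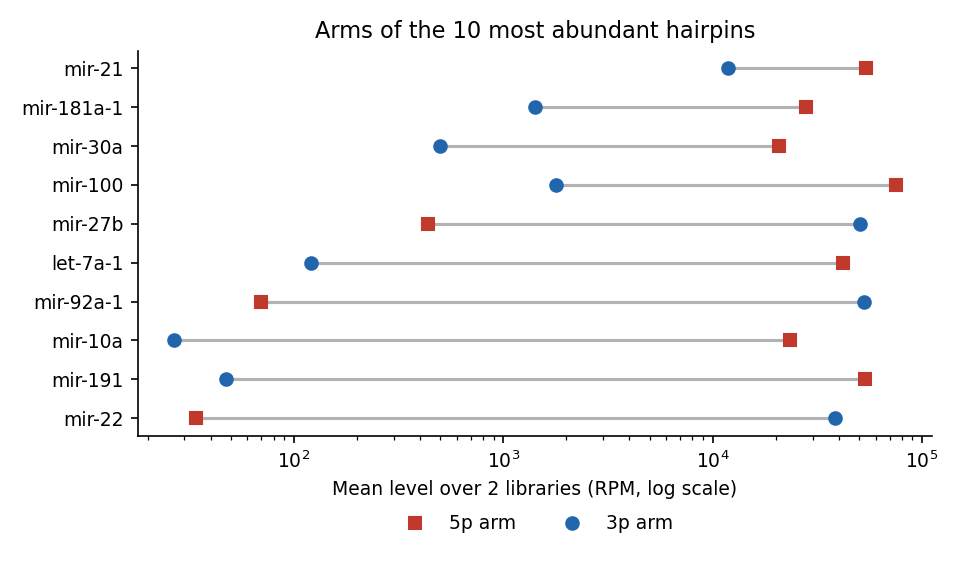
Mean level of the 5p arm (red squares) and the 3p arm (blue circles) in RPM (x, log scale) for the 10 hairpins with the highest sums, ordered by the fold between the arms, which the grey line spans. The line of mir-21 is the shortest at 4.54-fold, and that of mir-22 the longest at 1123-fold.

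By arm ratio, the hairpins next to mir-21 among those at 1000 RPM or more stood at lower levels, as did all but mir-100 by mean sum. With ratios just below were mir-1307 (log2 5p over 3p 2.09 ± 0.17), mir-125b-1 (1.73 ± 0.02) and, after a wide gap, mir-151a (-0.22 ± 0.05). Just above were mir-17 (2.24 ± 0.25), mir-425 (3.03 ± 0.42) and mir-30e (3.78 ± 0.31; SD, n = 2 for each). The ratio of mir-21 (2.26 and 2.09) overlapped that of mir-1307 (1.97 and 2.21) and mir-17 (2.06 and 2.41) over the libraries, so their order was not resolved. In mir-1307 the arms had 4647 RPM (miR-1307-5p) and 1101 RPM (miR-1307-3p) by mean, and in mir-17, a member of the oncogenic miR-17-92 cluster, 1705 RPM (miR-17-5p) and 360 RPM (miR-17-3p).

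Of 16 hairpins known for accumulating both arms in one tissue or another, 14 had both arms in the table and 12 reached 100 RPM. Their median distance between arms was 3.07 on the log2 scale, against 5.57 over the 136 hairpins other than mir-21. Of the 12, 4 were more balanced than mir-21 (mir-151a, mir-199b, mir-424 and mir-455), against 24 of the 136. That none had a less abundant arm above miR-21-3p follows from its place as the highest such arm of all 137. Mir-30e, mir-30a and mir-140 had less abundant arms at 525 RPM (miR-30e-3p), 501 RPM (miR-30a-3p) and 444 RPM (miR-140-5p).

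The spread between the libraries is the only error these data give, and the tests below compare those libraries and no condition. MiR-21-5p was higher in replicate 1 by 0.32 on the log2(RPM + 1) scale, and miR-21-3p by 0.14. Over the 335 miRNAs that reached 10 RPM in both libraries, the median shift was 0.10 in the same direction. Relative to it the 5p arm was 0.21 higher in replicate 1 and the 3p arm 0.04 higher. Of the other 65 miRNAs at a mean of 1000 RPM or more, 23 differed by more than miR-21-5p and 47 by more than miR-21-3p.

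Neither arm passed the rule for a difference between libraries, an adjusted p under 0.05 with a fold over 2. That rule called 40 of 869 miRNAs (4.6%). By Fisher's exact test (two-sided) on reads with Benjamini-Hochberg adjustment over the 869, the adjusted p was 2.0e-154 for miR-21-3p, and for miR-21-5p it was returned as 0, below what the computation can hold. These p-values set the differences against counting error only, with no spread between preparations, and at this depth 34.5% of the miRNAs had an adjusted p under 0.05.

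The 3p share of mir-21 was higher in replicate 2, and the log2 arm ratio was 0.18 higher in replicate 1. Its adjusted p over 137 hairpins was 1.9e-205 by Fisher's exact test (two-sided) on reads, and 81 of the 137 (59.1%) had an adjusted p under 0.05. At 1.13-fold mir-21 was not called by the rule above, and 7 hairpins (5.11%) were. Of the other 136 hairpins 90 changed their ratio by more, with a median size of 0.28. The shift in arm use of mir-21 was thus no wider than the usual spread between these libraries.

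**Figure D5:**
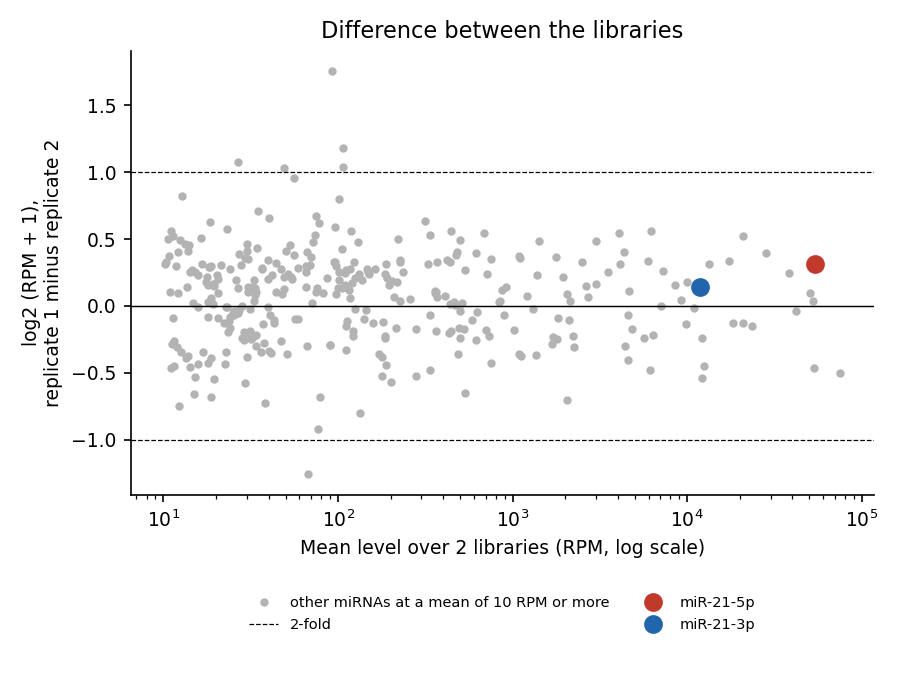
Difference between the libraries (y, log2 of RPM + 1, replicate 1 minus replicate 2) against mean level (x, RPM, log scale) for miRNAs at a mean of 10 RPM or more; dashed lines mark 2-fold, red is miR-21-5p and blue miR-21-3p. Both arms lie between the dashed lines, at 0.32 and 0.14, inside the cloud of other miRNAs.

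Over only 2 libraries, the pattern of a miRNA is a single difference, so likeness here means the smallest distance between log2 differences among 65 others at 1000 RPM or more. Nearest to miR-21-5p were let-7g-5p (log2 difference 0.31), let-7f-5p (0.31) and miR-101-3p (0.33). Nearest to miR-21-3p were miR-204-5p (0.15), miR-221-3p (0.16) and miR-1307-5p (0.12). The pair of arms was not among each other's nearest.

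Other miRNAs often called oncogenic were mostly lower than miR-21-5p. Of 20 on that list, all with a row, 17 reached 10 RPM and 10 reached 1000 RPM in both libraries, against 335 and 61 of all 1497. The median of their means was 1286 RPM, against 0.588 RPM over the table. The list was chosen with earlier results of these data known, and the table also holds less abundant arms, so this contrast is no test. Only miR-92a-3p of the miR-17-92 cluster (52790 ± 972 RPM) and miR-10b-5p (20818 ± 1303 RPM) had means above miR-21-3p. MiR-155-5p, an inflammation-linked oncomiR, was at 1.18 ± 0.293 RPM (15 reads in each library).

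Genes of 8 other miRNAs are, like MIR21, known targets of AP-1, STAT3 or NF-kB. All 8 had a row, 7 reached 10 RPM and 6 reached 1000 RPM in both libraries, against 335 and 61 of all 1497. The median of their means was 3777 RPM, against 0.588 RPM over the table. This list was chosen with earlier results of these data known, and shared regulation was not tested. The highest were miR-222-3p (9376 and 9111 RPM), miR-221-3p (8923 and 7992 RPM) and miR-181b-5p (7390 and 5001 RPM). None had a mean above that of either miR-21 arm, and only 17 of all 1497 had a mean above that of miR-21-3p.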

How the data were processed

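The authors deposited RPM, with decimal commas, for each hairpin and mature miRNA in 2 libraries. CASAVA 1.8 and cutadapt 1.2.1 were used, per the submitters' processing notes. The aligner, miRNA release, build and treatment of multiply matching reads were not given in the sources used here. Ligation and amplification differ between sequences, so a ratio between miRNAs or arms is not an exact ratio of molecules. Each deposited column summed to 1000000. All values above 0 were whole multiples of the smallest (100% within 0.01 reads), which gave the reads. No row was 0 in both libraries, and 0 other value columns were present.

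For a mature name with several hairpins the highest copy was kept. Log2 values used a pseudocount of 1 RPM. Arms were compared at a summed mean of 100 RPM or more. Fisher's exact test (scipy 1.17.1) covered miRNAs with 10 reads or more in sum, with 0.5 reads added for folds. It was also tried on simulated data that held counting error only, which says nothing of the spread between real libraries. Sequences came from RefSeq (1317 of 1497 names matched) and folds from RNAfold 2.7.2. Named miRNAs were both arms, their 3 neighbours on either side in level and in arm ratio, the highest less abundant arms, the 3 most alike over the libraries, seed relatives and list members. The PDCD4 and BRAF transcripts, the 10 most abundant hairpins and hairpin totals were chosen after values were seen. Members and lists were chosen with earlier results of these data known. Alternatives were other copies, scalings, minima, pseudocounts of 0.1 and 10 RPM, a fold limit of 1.5 and each library left out.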

Additional observations from a re-analysis of the deposited data

How the results depend on the processing

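Levels of mir-21 arms do not depend on how copies are treated, since each arm has 1 hairpin, but their denominator does. With RPM scaled to the reduced table (1 value per mature name), miR-21-5p stood at 69154 RPM and miR-21-3p at 15236 RPM; without miR-100-5p in the total, miR-21-3p stood at 12822 RPM. With copies of other miRNAs summed, miR-21-5p stood at rank 5. The share of other hairpins more balanced than mir-21 was 17.6%, against 59.1% with no minimum level, 7.25% at 1000 RPM or more and, with no minimum or pseudocount (340 hairpins above 0, chosen after seeing the data), 37.8%. With 2 libraries, leaving out 1 only gives back the values of the other, so it is no separate check. Leaving out each library gave 47975 to 59733 RPM and rank 2 to 5 for miR-21-5p, 11298 to 12438 RPM and rank 15 to 18 for miR-21-3p, log2 arm ratios of 2.09 to 2.26 and 14.1% to 21.01% of hairpins more balanced. MiR-21-3p was the highest less abundant arm (rank 1) in both of these, without shared arms and with copies summed. The other alternatives moved levels, ranks and arm ratios by less than the SD between libraries, and no alternative changed the call of a difference between libraries. Median ratio scaling took the log2 difference of miR-21-3p to 0.04, against 0.14 as deposited, and that of miR-21-5p to 0.21, against 0.32. No paired analysis was possible because there is 1 group. With 2 libraries the SD is itself uncertain, and counting error is small beside it.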

Other observations

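A list of 12 miRNAs from the same chromosome arm as MIR21, 17q, was looked up, and 9 had a row. Of these, 7 reached 10 RPM and 1 reached 1000 RPM in both libraries, against 335 and 61 of all 1497. The median of their means was 172 RPM, against 0.588 RPM over the table. The list was chosen with earlier results of these data known, and whether it holds every 17q miRNA was not checked, so this contrast is no test. MiR-196a-5p of the list is shared between hairpins, so its level is not that of 1 hairpin. MiR-10a-5p, from the HOXB cluster, had 22335 and 24738 RPM and was the only listed one above miR-21-3p. MiR-301a-3p had 613 and 634 RPM and miR-454-3p 203 and 228 RPM. MiR-142-5p, a miRNA of blood cells, had 2.22 and 2.20 RPM.

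MiR-21-5p begins with U. Among the 114 more abundant arms with a RefSeq sequence, from hairpins at 100 RPM or more, 71 (62.3%) began with U, against 24 of the 122 less abundant arms (19.7%). Of the less abundant arms 50 (41.0%) began with C. These are counts over the table, and whether the first base bears on which arm is kept was not tested.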
